A study of Mus musculus with 7 samples.

Results

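The cytosolic ribosomal protein genes encode the proteins of the large (Rpl) and small (Rps) subunits of the ribosome that translates messages of the nuclear genome. They were chosen by name alone, as the protein-coding genes of the GENCODE annotation of mm10 whose symbol is Rpl or Rps followed by a number and at most a single a, x or l, together with Rplp0, Rplp1, Rplp2 and Rpsa. The rule held 80 of 21938 protein-coding genes on the autosomes, X and Y, of which 49 belong to the large and 31 to the small subunit. The rule itself uses no measured value.

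The data are ATAC-Seq peak lists, in which a transposase cuts and tags accessible DNA, from 50000 sorted LSK cells per library. LSK cells (lineage-negative, Sca-1-positive and c-Kit-positive bone marrow cells) hold the hematopoietic stem cells and multipotent progenitors. The 3 Ctrl libraries came from adult wild-type C57/BL6 offspring of normal pregnancy, and the 4 WTAkita libraries from adult wild-type C57/BL6 offspring of diabetic Ins2Akita/+ dams, which carry an insulin mutation that the WTAkita offspring do not. Per the study's methods, diabetic and wild-type dams both received a high-fat diet before breeding, and the sources used here do not say how many mice a library holds. The study calls the libraries biological replicates, and the tests measure the spread between them.

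Ribosomal proteins are made in equal amounts and assemble with ribosomal RNA into subunits, first in the nucleolus and then in the cytoplasm. Their genes are transcribed in nearly every cell from housekeeping promoters, and their messages often begin with a run of pyrimidines, the 5′ terminal oligopyrimidine or TOP motif, through which mTOR signalling sets their translation. Hematopoietic stem cells are known for a low rate of protein synthesis, and loss of a single copy of some of these genes causes Diamond-Blackfan anaemia, a failure of red cell production.

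The value used for a gene was the highest fold enrichment of any peak with a base within 1000 bp of its annotated start sites. Fold enrichment is the pileup of cut-centred reads at the peak's summit divided by the local background in the same library, each plus a pseudocount of 1, and carries no unit. In bulk libraries a site open in more cells and a site more open in each cell cannot be told apart. A peak lay at the start of 77 of the 80 ribosomal protein genes (96.2%) in all 7 libraries, beside 15825 of the 21938 genes (72.1%). No ribosomal protein gene had a peak in only some libraries. The 3 without a start-site peak in any library were Rpl10l, Rpl39l and Rpl3l, copies of Rpl10, Rpl39 and Rpl3 known from testis (Rpl10l and Rpl39l) and striated muscle (Rpl3l). The nearest peak lay 391057 to 391108 bp from the start of Rpl10l, 22030 to 22433 bp from that of Rpl39l and 1508 to 1648 bp from that of Rpl3l. A copy that did have a peak in all 7 libraries was Rps27l, close in sequence to Rps27.

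The starts of the 4 copies and of Rpl10, Rpl39 and Rps27 are shown because 3 of the copies lacked the start-site peak that the parent genes had. Each line holds 100 bases before the RefSeq start and 20 bases from it, 5′ to 3′ on the gene's strand in GRCm38.p6 (mm10), with CG in capitals:
Rpl10, chrX:74270716-74270835, plus strand: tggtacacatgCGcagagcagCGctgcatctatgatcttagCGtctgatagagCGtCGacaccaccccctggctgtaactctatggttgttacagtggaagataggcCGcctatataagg
Rpl10l, chr12:66284382-66284501, minus strand: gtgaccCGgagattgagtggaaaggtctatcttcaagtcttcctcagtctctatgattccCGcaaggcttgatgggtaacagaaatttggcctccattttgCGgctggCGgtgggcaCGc
Rpl39, chrX:37085203-37085322, minus strand: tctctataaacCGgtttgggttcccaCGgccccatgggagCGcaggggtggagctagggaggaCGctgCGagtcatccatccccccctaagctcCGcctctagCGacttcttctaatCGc
Rpl39l, chr16:10170128-10170247, plus strand: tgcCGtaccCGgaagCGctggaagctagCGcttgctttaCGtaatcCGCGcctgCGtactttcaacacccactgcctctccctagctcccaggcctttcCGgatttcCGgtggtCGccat
Rps27, chr3:90213629-90213748, minus strand: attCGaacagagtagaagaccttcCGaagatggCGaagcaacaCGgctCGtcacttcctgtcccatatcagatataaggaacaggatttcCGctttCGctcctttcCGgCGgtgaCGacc
Rps27l, chr9:66945986-66946105, plus strand: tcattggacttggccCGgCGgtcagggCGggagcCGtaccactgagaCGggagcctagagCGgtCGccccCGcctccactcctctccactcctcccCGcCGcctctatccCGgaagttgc
Rpl3l, chr17:24727726-24727845, plus strand: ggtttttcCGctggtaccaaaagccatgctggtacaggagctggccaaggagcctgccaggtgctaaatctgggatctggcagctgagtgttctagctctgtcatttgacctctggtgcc
The stretch of Rpl3l held 1 CG, and those of Rpl10l and Rpl39l held 5 and 11, beside 6 for Rpl10 and 8 for Rpl39. Over the 1000 bp around the gene's annotated 5′ end, the observed over expected CpG ratio was 0.171 for Rpl3l. It was 0.720 for Rpl10l against 0.750 for Rpl10, 0.548 for Rpl39l against 0.607 for Rpl39 and 0.815 for Rps27l against 0.891 for Rps27. The ratio was thus low for Rpl3l, beside 0.651 for Rpl3, while Rpl10l and Rpl39l lay near their parents without a peak. Across the 77 genes with a peak the median was 0.789, beside 0.683 over the 15825 genes. A low ratio was also found at genes with a peak in all 7 libraries, such as Rps2 (0.146) and Rps14 (0.172). In both, the strongest peak lay at another annotated start than the 5′ end used for the ratio.

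The transcript starts of 8 genes show runs of pyrimidines of different length at the RefSeq start, as in TOP messages, including none. Each line gives 10 bases before and 20 bases from the RefSeq start on the gene's strand in the same build, with the run of C and T that begins at the start in capitals:
Rpl27a, chr7:109519185-109519214, plus strand: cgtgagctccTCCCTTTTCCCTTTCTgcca
Rpl15, chr14:18270967-18270996, minus strand: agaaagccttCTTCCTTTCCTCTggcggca
Rps10, chr17:27635225-27635254, minus strand: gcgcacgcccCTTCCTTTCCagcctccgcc
Rps6, chr4:86857348-86857377, minus strand: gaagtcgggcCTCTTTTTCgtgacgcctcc
Rpl31, chr1:39367841-39367870, plus strand: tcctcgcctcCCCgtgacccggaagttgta
Rps26, chr10:128626487-128626516, minus strand: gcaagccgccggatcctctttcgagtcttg
Rpl11, chr4:136053374-136053403, minus strand: ccataaggccacggggccggaagtctccct
Rpl19, chr11:98026914-98026943, plus strand: tctccccttcgcagataatgggcggagcct
The run was 16 bases in Rpl27a, 13 in Rpl15, 10 in Rps10 and 9 in Rps6, 3 in Rpl31 and 0 in Rps26, Rpl11 and Rpl19. A run of 5 or more stood at 15 of the 57 RefSeq starts of genes with a peak (26.3%), beside 3.83% of all 16522 mouse promoters in the table and 4.08% of the 12168 with a peak. The start base was C in 19 of 57 (33.3%), beside 13.99% and 14.8%. A run of 5 within 10 bases of the start, as in Rpl31, Rps26 and Rpl19, was in 35 of 57 (61.4%, beside 40.4% and 40.1%), so these counts depend on the exact base taken as the start. Of the 57 RefSeq starts, 55 lay within 500 bp of the summit of the strongest peak, and that of Rps26 lay 289 bp from it. Motifs were counted on either strand in a window of the 250 bases before the start. The letters CCGGAAG, the core bound by ETS factors, stood in 16 of the 57 windows (28.1%). The share was 9.65% of all promoters and 12.4% of those with a peak at the start. GATGGC, part of the YY1 motif, was in 7 (12.3%, beside 9.79% and 10.04%), the Sp1 box GGGCGG in 27 (47.4%, beside 45.1% and 58.1%) and the E-box CACGTG in 4 (7.02%, beside 6.80% and 8.14%). CCAAT was in 17 (29.8%, beside 36.03% and 35.5%) and TATAAA in 2, Rpl39 and Rps2 (3.51%, beside 11.8% and 6.48%). Rpl36a holds TATAAA, and Rpl19 and Rpl23 hold GGGCGG, after the start, where they were not counted. The shares of CCGGAAG and of a C or 5 pyrimidines at the RefSeq start itself were thus more than 2 times both backgrounds, and the other motifs, several of them in few genes, lay nearer to theirs or below. Both strands were read, and the motifs do not hold each other. Letters are a description of the window and not a bound site. The median fold enrichment was 15.97 with and 15.8 without CCGGAAG before the start, and 15.4 with and 16.1 without a run of 5 pyrimidines. By these counts the level differed little with CCGGAAG or with a run of 5 at the start itself. With other definitions of the start it differed more, and in opposite directions. The median was 17.4 with and 15.8 without a C at the start, and 15.7 with and 17.0 without a run of 5 within 10 bases. The genes counted without CCGGAAG include Rpl31 (mean 26.4), Rpl11 (22.6), Rps27l (21.8), Rpl6 (16.2) and Rpl26 (13.9), which hold it after the start. It was 14.2 with and 16.1 without CCAAT.

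Averaged over the 7 libraries, the median fold enrichment of the 77 ribosomal protein genes was 15.8, with quartiles of 13.3 and 18.1, beside 14.5 over all genes with quartiles of 10.3 and 18.8. They therefore lay around the middle of the genes, in a narrower band, and 63.6% of them were above the all-gene median. Per library their median was 14.6, 17.05 and 16.4 across Ctrl replicates 1 to 3 and 14.2, 15.2, 16.6 and 17.3 across WTAkita replicates 1 to 4. Over all genes the medians were 13.97, 15.3 and 15.1 for Ctrl and 12.8, 13.7, 15.2 and 15.5 for WTAkita. The ratio of both was 1.05 to 1.12 in every library. WTAkita replicate 1 had the lowest value of all 7 libraries for 50 of the 77 genes, and it also had the lowest all-gene median. The order of the genes was alike from library to library, with Spearman correlations across genes of 0.831 to 0.949 over the 21 pairs of libraries, a median of 0.923 within and 0.925 between groups. Genes are not independent replicates, and these correlations are descriptions.

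The highest genes held their place. Rpl31 was the highest in 5 libraries and Rps26 in the other 2. Rpl31, a large-subunit protein at the rim of the exit tunnel, had 25.1, 27.1 and 26.7 in the Ctrl and 24.8, 25.4, 26.6 and 29.1 in the WTAkita libraries. Rps26, a small-subunit protein at the exit of the message, had 25.02, 25.97 and 28.7 in the Ctrl and 21.2, 25.3, 28.6 and 27.2 in the WTAkita libraries. The ranges of both overlap in either group, so their order is not set beyond their spread. Rpl15, a large-subunit protein, followed with 23.8, 22.9 and 22.3 in the Ctrl and 22.4, 22.00, 23.1 and 23.1 in the WTAkita libraries, the steadiest of the high genes. Rpl11, the large-subunit protein that binds Mdm2 when ribosome assembly fails, had 20.7, 23.8 and 23.98 in the Ctrl and 19.7, 19.4, 24.01 and 26.2 in the WTAkita libraries. Its range held that of Rpl15. Rps27l had 19.1, 22.99 and 23.7 in the Ctrl and 18.97, 20.8, 24.1 and 23.2 in the WTAkita libraries, so the copy open in LSK cells was among the 5 highest. In Rpl11 and Rps27l the lowest value was in a WTAkita library and the groups overlapped.

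At the low end stood 4 genes of the large subunit. Rpl19 had 7.44, 9.69 and 9.08 in the Ctrl and 7.83, 7.77, 8.91 and 9.58 in the WTAkita libraries. Rpl36 had 8.08, 10.4 and 8.97 in the Ctrl and 6.75, 8.67, 10.02 and 9.53 in the WTAkita libraries, lowest in WTAkita replicate 1. Rpl7 had 8.93, 9.25 and 10.1 in the Ctrl and 9.05, 9.26, 9.58 and 10.1 in the WTAkita libraries, with little spread in either group. Rpl8, a protein near the peptidyl transferase centre, had 9.37, 9.93 and 10.4 in the Ctrl and 9.23, 9.32, 10.6 and 10.8 in the WTAkita libraries, and none of the 4 separated the groups. These 4 and the 5 highest genes stayed apart in every library, while neighbours within each end overlapped.

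**Figure D1:**
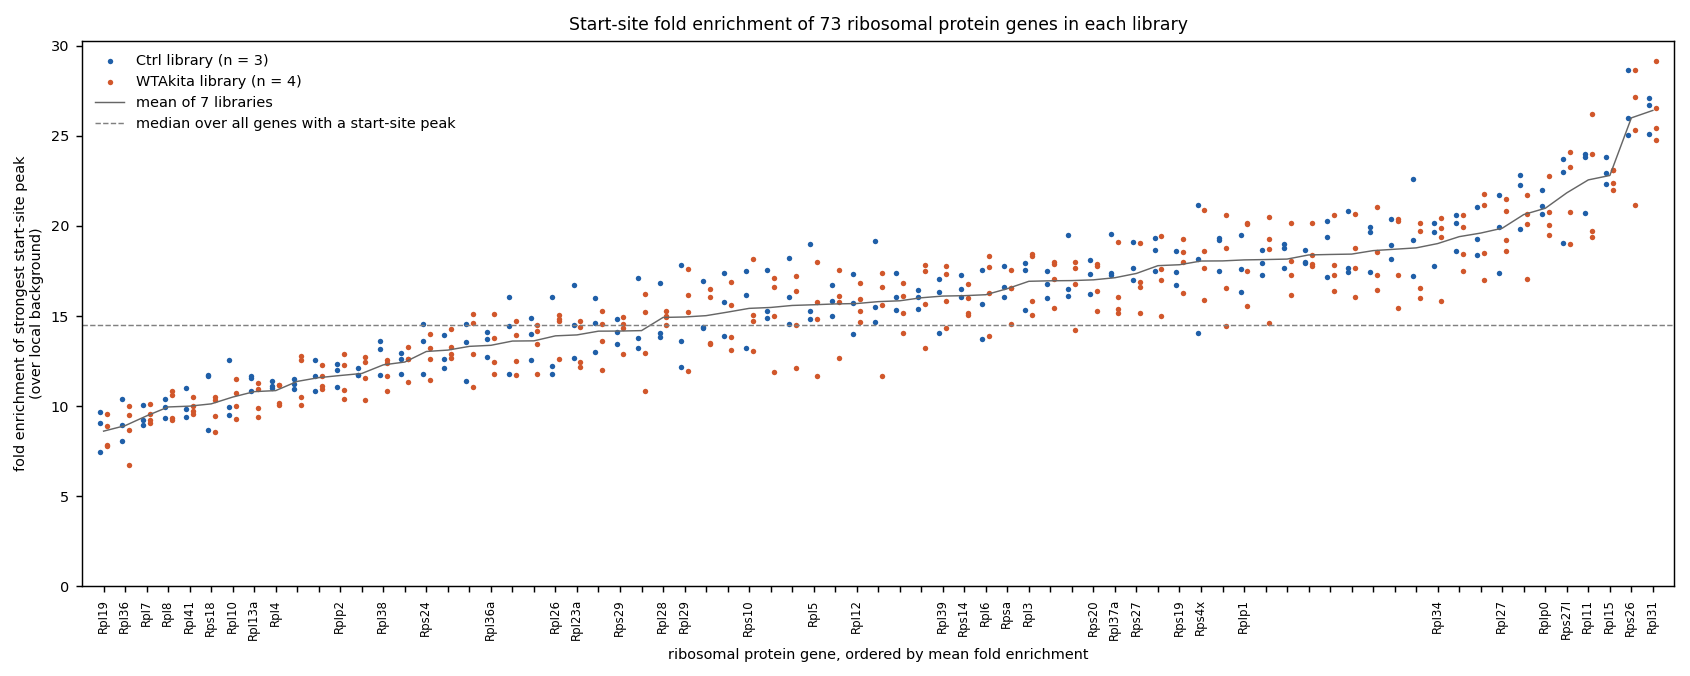
Fold enrichment of the strongest start-site peak (vertical axis, no unit) of each of 73 ribosomal protein genes (horizontal axis, ordered by mean, with the genes of the text labelled), with 1 point per library coloured by group, a line for the mean and a dashed line for the median over all genes. The points of Ctrl and WTAkita overlap in every gene, up to Rpl31 at the high end.

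The stalk genes differed among themselves. Rplp0, Rplp1 and Rplp2 encode the acidic stalk that calls elongation factors to the large subunit. Rplp0 had 20.6, 21.1 and 21.98 in the Ctrl and 19.5, 20.1, 20.8 and 22.8 in the WTAkita libraries. Rplp1 had 16.3, 17.6 and 19.5 in the Ctrl and 17.5, 15.6, 20.2 and 20.1 in the WTAkita libraries, below Rplp0 in 7 of 7 libraries. Rplp2 had 11.1, 12.03 and 12.3 in the Ctrl and 10.4, 10.9, 12.9 and 12.3 in the WTAkita libraries, below the other two in every library. Rpsa, the small-subunit protein also known as the laminin receptor, had 16.04, 16.6 and 17.8 in the Ctrl and 14.6, 16.5, 16.6 and 17.5 in the WTAkita libraries. The groups overlapped in each of these genes.

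By pileup, the reads stacked at the summit before division by background, more of the ribosomal protein genes lay above the median of all genes than by fold enrichment. The median pileup was 330 reads (quartiles 253 and 407), beside 238 over all genes (quartiles 123 and 362), and 84.4% of the ribosomal protein genes were above the all-gene median. The ratio of the medians was 1.28 to 1.44 in the 7 libraries. Pileup was not scaled for depth, so it was compared between genes of the same libraries. The local background at these genes was a median of 5.45 times the lowest background of the library, beside 3.97 times over all genes, and it enters the fold enrichment as the divisor. Across the 77 genes fold enrichment had a Spearman correlation of -0.306 with background, 0.415 with pileup and 0.141 with width, as a description of values from the same peaks. By pileup 28 of the 77 were above the 75th percentile of all genes and none was below the 25th, whereas by fold enrichment 13 were above and 7 below.

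Single genes show the difference between the measures. Rpl13a was at the 28.0th percentile by fold enrichment and the 91.2nd by pileup, over a background of 12.1 times the lowest. Rpl41, which encodes the shortest ribosomal protein, was at the 23.7th and 84.8th, over a background of 11.4 times the lowest. Rps4x on X had the lowest pileup, 133 reads (27.2nd percentile), over a background of only 1.7 times the lowest, and reached the 71.1st percentile by fold enrichment.

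**Figure D2:**
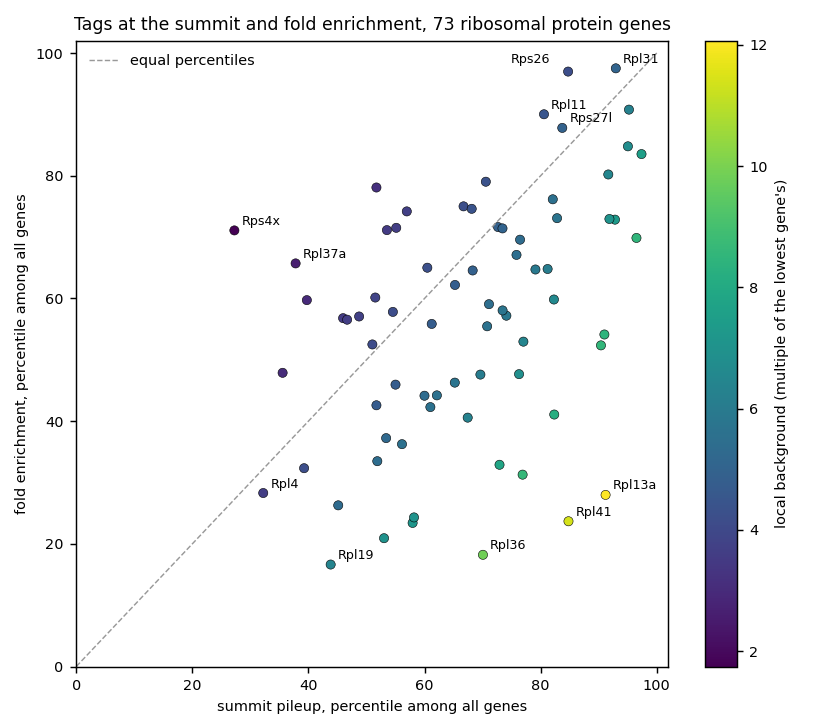
Percentile of each of 73 ribosomal protein genes among all 15825 genes by summit pileup (horizontal axis) and by fold enrichment (vertical axis), with the colour giving the local background as a multiple of the lowest. Of these, 51 lie at a higher percentile by pileup than by fold enrichment, Rpl13a and Rpl41 among them.

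Summits lay close to the annotated starts. The summit of the strongest peak was within 100 bp of a start in 56 of 77 genes (72.7%, beside 55.5% of all genes) and within 200 bp in 73 (94.8%, beside 73.3%). It was upstream of the nearest start in 59 (76.6%, beside 64.6%). The 2 genes beyond 300 bp were Rpl4, with a median of 549 bp upstream in a peak shared with Zwilch, and Rpl38, with 439 bp downstream. Several summits, counted over all peaks with a base within 1000 bp of a start, were called in all 7 libraries for 68 of the 77 genes (88.3%, beside 79.2%). They can lie in 1 peak or in separate peaks. The strongest peak was also the strongest of another gene for 14 of 77 (18.2%, beside 15.1%), so its value there belongs to both. Examples of such shared peaks are Rpl7 with Rdh10, Rps18 with Vps52, Rps27 with Rab13, Rpl12 with Lrsam1 and Rpl15 with Nkiras1. In 15 genes the annotated 5′ end lay within 1000 bp of that of a protein-coding gene on the opposite strand, in either orientation. Their median fold enrichment was 15.6, beside 16.1 for the other 62. The strongest peak did not always lie at that 5′ end, as at Rpl3, Rps2 and Rps24, so these medians do not compare shared with unshared promoters.

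**Figure D3:**
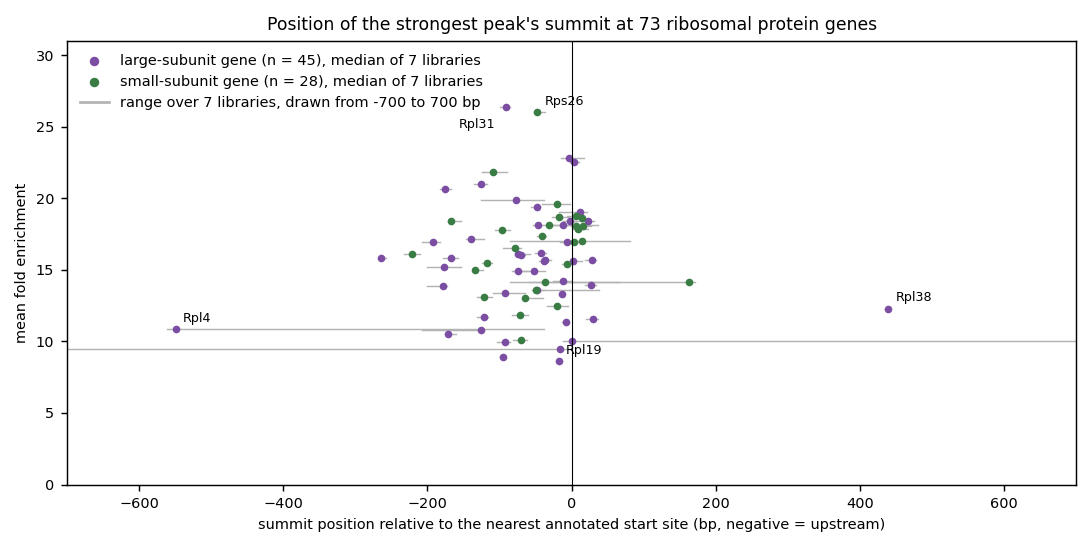
Median distance of the summit from the nearest annotated start (horizontal axis, bp, negative upstream) and mean fold enrichment (vertical axis, no unit) of 73 ribosomal protein genes, with horizontal lines from the lowest to the highest library, drawn to 700 bp on either side. Of these, 71 lie within 300 bp, and Rpl4 and Rpl38 lie outside.

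The strongest peak had a median width of 995 bp (quartiles 875 and 1101), beside 974 bp over all genes (quartiles 751 and 1197). Ribosomal protein genes thus had a similar median and a narrower spread. The widest was at Rpl7 with 2046, 2346 and 2051 bp in the Ctrl and 2370, 2366, 2053 and 2330 bp in the WTAkita libraries, the 99.9th percentile, in a peak shared with Rdh10. Its widths fell into a narrower and a wider set, with libraries of both groups in each. Rpl29 had 1458, 1482 and 1496 bp in the Ctrl and 1500, 1433, 1529 and 1405 bp in the WTAkita libraries. Rps29 had 1412, 1417 and 1401 bp in the Ctrl and 1416, 1427, 1396 and 1424 bp in the WTAkita libraries. At the narrow end, Rpl23a had 654, 659 and 625 bp in the Ctrl and 613, 653, 629 and 655 bp in the WTAkita libraries. Rpl28 had 629, 668 and 626 bp in the Ctrl and 702, 602, 615 and 665 bp in the WTAkita libraries, and the groups overlapped at both narrow peaks. The order of widths repeated across libraries (Spearman 0.751 to 0.921 over the 21 pairs). The median coefficient of variation of a gene over the 7 libraries was 4.88% for width, beside 6.95% over all genes, and 8.95% for fold enrichment, beside 8.94%.

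By subunit, the median fold enrichment was 15.6 for the large and 16.95 for the small subunit. The 4 genes on X (Rpl10, Rpl36a, Rpl39 and Rps4x) had a median of 14.7, beside 15.8 for the autosomal members. Their median pileup was 205 reads, beside 336 for the autosomal members, and the 506 genes of X with a peak had 148 reads, beside 241 for the 15315 autosomal genes. The lower pileup was thus seen over all genes of X as well. The lower fold enrichment was not, with a median of 15.5 over the genes of X and 14.5 over the autosomal genes. Every library had peaks on Y, 81 to 123 in Ctrl and 67 to 115 in WTAkita. Rpl10, which joins the large subunit late in its maturation, had 9.50, 12.6 and 9.94 in the Ctrl and 9.26, 10.01, 11.5 and 10.7 in the WTAkita libraries. Rpl36a had 12.7, 14.1 and 13.7 in the Ctrl and 11.8, 12.4, 15.1 and 13.8 in the WTAkita libraries. Rpl39, at the exit tunnel, had 14.1, 17.05 and 16.4 in the Ctrl and 14.3, 15.8, 17.3 and 17.8 in the WTAkita libraries. Both were lowest in replicate 1 of their group, as was Rps4x in Ctrl, which had 14.1, 18.2 and 21.1 in the Ctrl and 17.7, 15.9, 18.6 and 20.9 in the WTAkita libraries.

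Fold enrichment was compared between WTAkita and Ctrl to ask whether start-site accessibility of these genes differed after diabetic pregnancy. The log2 values of all 15825 genes were quantile normalized and tested with limma, adjusted over all genes. At an adjusted p under 0.05 no ribosomal protein gene was called (0 of 77), beside 2 of 15825 genes (0.0126%). At an unadjusted p under 0.05 there were 0 of 77, beside 624 (3.94%). The groups did not overlap for 0 of 77 genes, beside 741 of all genes (4.68%, of which 2.70% were higher and 1.98% lower in WTAkita). The lowest adjusted p of a ribosomal protein gene in the limma test was 0.999.

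The fitted log2 differences, WTAkita minus Ctrl, were above 0 for 44 and below 0 for 33 genes, with a median of 0.011, beside 0.006 over all genes. They ran from -0.10 to 0.16, inside the range of -0.21 to 0.18 that held the central 95% of all genes. The 95% interval of a gene's difference had a median half-width of 0.15, and no interval passed -0.32 or 0.37. Larger changes in log2 fold enrichment than these bounds lie outside the intervals at this spread between libraries. The interval does not show that the groups were alike.

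**Figure D4:**
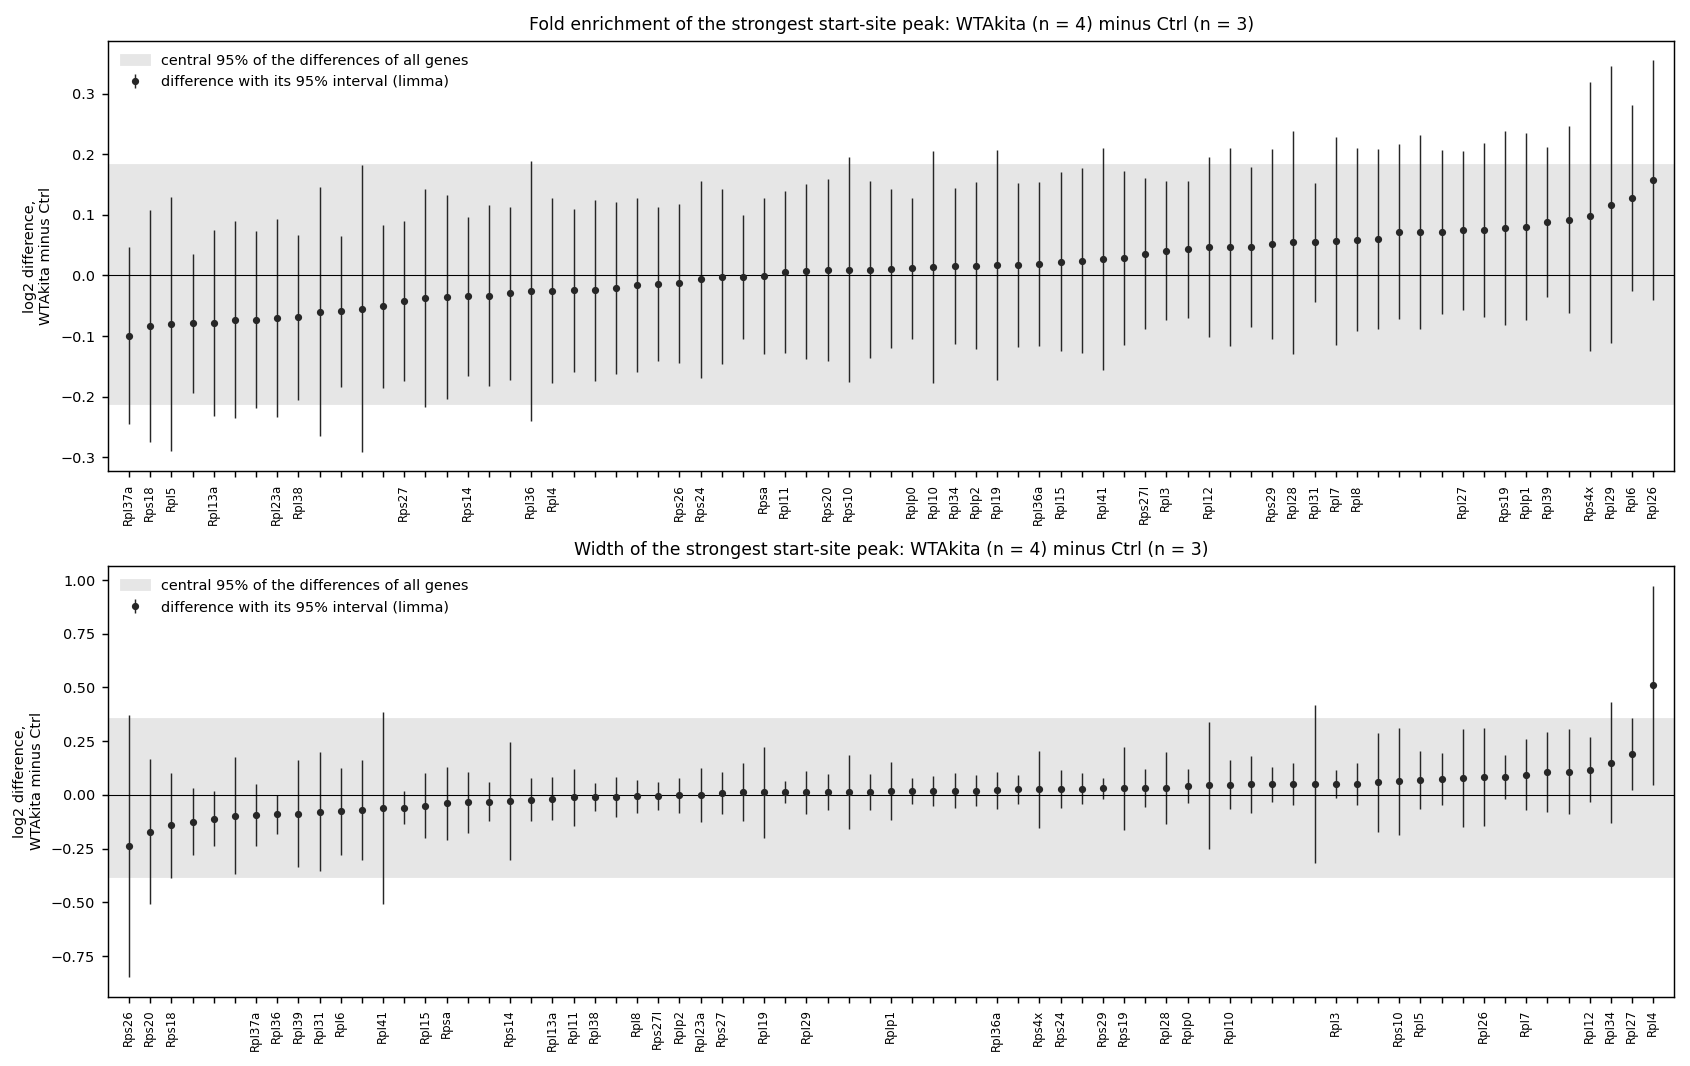
Log2 difference, WTAkita minus Ctrl, after quantile normalization (vertical axis) of each of 73 ribosomal protein genes (horizontal axis, with the genes of the text labelled), for fold enrichment above and width below, with the 95% interval of the limma fit and a band for the central 95% of all genes. For fold enrichment every interval includes 0, and the points run from -0.10 to 0.16.

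Among the genes farthest below 0 were Rpl37a, Rps18 and Rpl5. Rpl37a had 17.3, 19.6 and 17.4 in the Ctrl and 15.2, 15.4, 16.04 and 19.1 in the WTAkita libraries (-0.10 on the log2 scale). As deposited, WTAkita replicates 1 to 3 were below all Ctrl libraries, but after normalization WTAkita replicate 1 was above Ctrl replicate 3. The difference was -0.059 without WTAkita replicate 3 and -0.14 without Ctrl replicate 3. Rps18 had 8.67, 11.7 and 11.7 in the Ctrl and 8.56, 9.43, 10.4 and 10.5 in the WTAkita libraries (-0.08), and its difference was -0.18 without Ctrl replicate 1, -0.037 without Ctrl replicate 2 and -0.029 without Ctrl replicate 3. Rpl5, a protein of the 5S ribonucleoprotein, had 14.8, 18.99 and 15.3 in the Ctrl and 11.6, 14.8, 18.01 and 15.8 in the WTAkita libraries (-0.08), and its difference was 0.0052 without Ctrl replicate 2, -0.014 without WTAkita replicate 1 and -0.14 without Ctrl or WTAkita replicate 3.

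Among the genes farthest above 0 were Rpl26, Rpl6, Rpl29 and Rps4x. Rpl26 had 11.8, 16.1 and 12.2 in the Ctrl and 12.6, 14.7, 15.1 and 14.8 in the WTAkita libraries (0.16, standard error 0.09), and the Ctrl replicate 2 value was the highest of the 7. Its difference was 0.27 without that library and 0.084 without Ctrl replicate 3. Rpl6 had 13.7, 15.7 and 17.6 in the Ctrl and 13.9, 16.3, 18.3 and 17.7 in the WTAkita libraries (0.13). With summit pileup per tags in place of fold enrichment, Rpl6 stood at -0.014, and by fold enrichment leaving out Ctrl replicate 1 gave 0.078 and leaving out Ctrl replicate 3 gave 0.20. Rpl29 had 12.2, 17.8 and 13.6 in the Ctrl and 11.9, 15.2, 16.2 and 17.6 in the WTAkita libraries (0.12), and its difference was 0.25 without Ctrl replicate 2, 0.039 without Ctrl replicate 1, 0.063 without Ctrl replicate 3 and 0.18 without WTAkita replicate 1. Rps4x on X, whose values stand above, had a difference of 0.10, which was -0.022 without Ctrl replicate 1, 0.060 without WTAkita replicate 1 and 0.22 without Ctrl replicate 3. The groups overlapped in each of the 4 genes. The difference for the other X members was 0.01 for Rpl10, 0.02 for Rpl36a and 0.09 for Rpl39.

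A list was made of 13 genes whose mutations are known from Diamond-Blackfan anaemia, and it need not hold all such genes. Their mean fold enrichment ran from 13.03 for Rps24 to 25.99 for Rps26, with a median of 17.8. Rps19, the gene most often mutated in the disease, had 17.4, 16.7 and 18.6 in the Ctrl and 18.02, 16.3, 19.3 and 18.6 in the WTAkita libraries. Rps27 had 17.01, 19.1 and 17.7 in the Ctrl and 15.2, 16.9, 16.6 and 19.1 in the WTAkita libraries. Rps14, which is not in that list but is lost in the 5q- syndrome, had 16.1, 16.5 and 17.3 in the Ctrl and 15.2, 15.05, 16.01 and 16.8 in the WTAkita libraries. The groups overlapped in all 3. Differences between groups were above 0 for 7 and below 0 for 6 of the 13 genes, from -0.08 for Rpl5 to 0.16 for Rpl26, with a median of 0.006.

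The width of the strongest peak was compared in the same way. No ribosomal protein gene was called (0 of 77), beside 10 of 15825 genes (0.0632%), and 3 were at an unadjusted p under 0.05, beside 691 (4.37%). After normalization the groups did not overlap for 6 of 77 genes, beside 1047 (6.62%). These were wider in WTAkita at Rps29, Rpl3, Rpl12, Rpl34 and Rpl27 (5, beside 4.85% of all genes) and narrower at Rpl36 (1, beside 1.77%). In the widths as deposited, 4 of 77 did not overlap, beside 879 of all genes (5.55%), and these were Rpl3, Rpl17, Rpl36 and Rps21, so that Rpl3 and Rpl36 appear in both. Rpl3, at the peptidyl transferase centre, had widths of 912, 907 and 904 bp in the Ctrl and 923, 930, 916 and 929 bp in the WTAkita libraries. The median log2 width difference was 0.018, beside 0.010 over all genes, with 50 above and 27 below 0.

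The 3 genes past the unadjusted threshold were Rpl27, Rpl4 and Rpl36, each with an adjusted p of 0.930 in the limma test. Rpl27 had widths of 765, 785 and 682 bp in the Ctrl and 820, 868, 781 and 866 bp in the WTAkita libraries. Its difference was 0.19 on the log2 scale, and the highest Ctrl width was 785 and the lowest WTAkita width 781 bp, so the groups touch before normalization. Rpl36 had 730, 687 and 711 bp in the Ctrl and 656, 658, 649 and 662 bp in the WTAkita libraries, a difference of -0.09, with every WTAkita width below every Ctrl width. Rpl4 had 847, 1440 and 847 bp in the Ctrl and 1419, 1469, 1409 and 1343 bp in the WTAkita libraries, where 2 Ctrl libraries had a peak of 847 bp and the third one as wide as in WTAkita. Its difference was 0.51 (standard error 0.19). Without Ctrl replicate 2 it was 0.76, with a limma adjusted p of 0.0036, and over the alternatives the adjusted p ran from 0.0036 to 0.988. When the bases covered by all peaks at the start were used instead, the difference was -0.0064, and with a window of 2000 bp it was -0.17.

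Single libraries decided most of the other large width values. Rpl34 had 1040, 1047 and 1035 bp in the Ctrl and 1044, 1448, 1047 and 1044 bp in the WTAkita libraries, with only WTAkita replicate 2 apart (0.15, and 0.041 without it). Rpl12 had 828, 826 and 818 bp in the Ctrl and 916, 975, 819 and 818 bp in the WTAkita libraries, with WTAkita replicates 1 and 2 above the rest. Rps26 had 935, 911 and 798 bp in the Ctrl and 462, 960, 828 and 789 bp in the WTAkita libraries (-0.24, and -0.0091 without WTAkita replicate 1, which stood apart). Rps20 had 1283, 863 and 891 bp in the Ctrl and 853, 920, 896 and 815 bp in the WTAkita libraries (-0.17), with Ctrl replicate 1 apart, and without that library the difference was 0.0067. Rps18 had 1191, 955 and 1005 bp in the Ctrl and 902, 880, 1053 and 898 bp in the WTAkita libraries (-0.14), with the highest value in Ctrl replicate 1 and a difference of -0.054 without it.

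**Figure D5:**
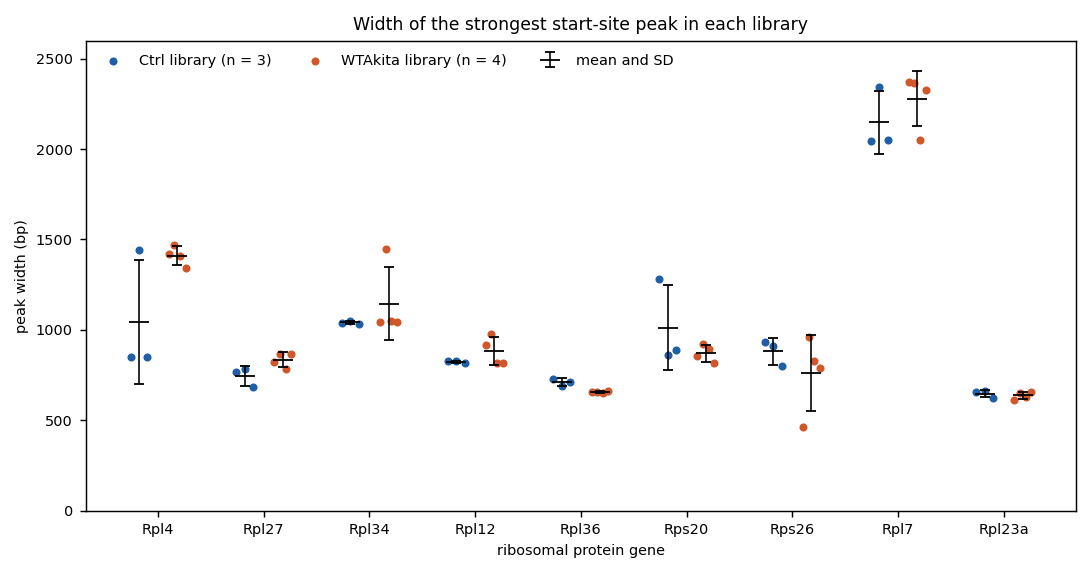
Width in bp (vertical axis) of the strongest start-site peak in each of the 7 libraries for 9 ribosomal protein genes named for their width or its difference, coloured by group, with bars for the mean and SD. Rpl36 is below 670 bp in all 4 WTAkita libraries and above 680 bp in all 3 Ctrl libraries, while Rpl34, Rps26 and Rps20 each have 1 library apart.

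Other genes of the translation system were set beside them, from lists described by counts and medians. All 78 mitochondrial ribosomal protein genes, all 42 translation factors and other TOP genes and all 60 ribosome biogenesis genes had a peak in all 7 libraries. Their median fold enrichment was 17.3, 14.7 and 17.4, beside 15.8 for the cytosolic ribosomal protein genes, and their median width 955, 1123 and 1045 bp, beside 995 bp. Median pileup was 275, 319 and 288 reads, each below the 330 of the cytosolic genes. The share of genes above the all-gene median pileup was 65.4%, 85.7% and 71.7%, beside 84.4% for the cytosolic genes. By that share the translation factors and other TOP genes were like the cytosolic genes. The limma test on fold enrichment called 0 genes in each list. At an unadjusted p under 0.05 there were 4 mitochondrial ribosomal protein genes (5.13%), 0 translation genes and 3 biogenesis genes (5%), beside 3.94% of all genes, and the lists' median differences were 0.001, 0.008 and 0.004. The farthest mitochondrial ones were Mrpl21 (-0.23), Mrps25 (-0.19), Mrpl16 (0.22) and Mrpl53 (0.49). Among translation genes they were the initiation factors Eif4g1 (-0.18) and Eif3f (-0.13), the poly(A)-binding protein Pabpc1 (0.10) and the elongation factor Eef1d (0.13). Among biogenesis genes they were Rrp1 (-0.16), Mdn1 (-0.13), the pseudouridine synthase Dkc1 (0.19) and Riok1 (0.20). All of these had a limma adjusted p of 0.999.

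The LSK label was checked against markers. All 12 stem and progenitor markers, among them Kit, Ly6a and Cd34, had a start-site peak in all 7 libraries, with a summed fold enrichment of 130 to 141 in Ctrl and 117 to 147 in WTAkita. A peak in all 7 libraries was also at 4 of 6 B cell markers, 4 of 6 T cell markers, 5 of 5 erythroid, 3 of 6 granulocyte and monocyte and 4 of 4 stromal markers. Of the others, Cd79a and Cd3g had a peak in 5 libraries, Elane in 3, S100a8 in 2, Ly6g in 1 and Ms4a1 and Cd8a in none, and an open start need not mean expression. The summed fold enrichment ranged from 45.6 to 48.5 in Ctrl and 40.5 to 48.7 in WTAkita for B cells, 52.0 to 58.7 and 50.6 to 59.0 for T cells, and 71.1 to 76.9 and 58.1 to 77.4 for erythroid cells. It was 23.0 to 27.3 and 19.8 to 30.8 for granulocytes and monocytes and 49.9 to 52.7 and 44.2 to 56.4 for stroma. The part of these cells in the values above was not tested. The libraries held 137963 to 151552 peaks and an estimated 37.6M to 53.1M tags.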

How the data were processed

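ATAC-Seq was performed on 50000 sorted LSK cells in each of 3 Ctrl and 4 WTAkita libraries. Per the labels, reads were processed with Trim Galore 0.4.2, cutadapt 1.9.1, Bowtie2 2.3.4.1 on mm10 and MACS2 2.1.4. The authors called peaks per library at p of 0.01 without a control, with reads shifted and extended to 150 bp around the cut and several summits allowed per peak. The deposited fold enrichment (a ratio of summit pileup to local background), the deposited −log10 p and q values and the deposited integer score come from MACS2. Read counts were not used here, so no count test was run. Summit pileup and background were solved from fold enrichment and p, and tags were estimated from these.

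A gene's value was the highest fold enrichment of peaks within 1000 bp of a start site, and its width that of the same peak, for 15825 genes with a peak in all 7 libraries. Log2 values were quantile normalized and tested with limma 3.58.1 (trend) in R 4.3.3, adjusted by Benjamini-Hochberg. Named genes were the extremes of level, difference and width, the X-linked, stalk and Diamond-Blackfan genes, tissue copies and 2 farthest genes per direction and list; Rpl3, Rpl13a, Rpl38, Rpl41 and the width genes beyond the extremes were chosen after their values were seen. The results of 4 members are not reported here singly, and counts and medians over the 77 genes include them. Members and lists were chosen with earlier results of these data known. Scripts were tested on simulated data. Promoters came from RefSeq (GRCm38.p6), where 60 of 80 genes matched. Libraries differed by more than sampling noise, so each counted as 1. The alternatives were other windows and peak choices, normalizations and covariates, a replicate block and libraries left out.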

Additional observations from a re-analysis of the deposited data

Results flagged for a closer look

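Of 81 values tested in the 4 WTAkita libraries, 7 had 1 library far from the other 3 by Dixon's criterion, which chance alone would give for about 1 in 20. Of these, 6 were widths. The width was 900 bp in WTAkita replicate 4 at Rpl11, where the others had 1013 to 1032 bp. Replicate 3 had 1069 bp at Rpl19, where the others had 892 to 907 bp. Replicate 2 had 707 bp at Rpl31, against 923 to 938 bp, and 1448 bp at Rpl34, against 1044 to 1047 bp. Replicate 3 had 2053 bp at Rpl7, against 2330 to 2370 bp, and 1053 bp at Rps18, against 880 to 902 bp. The fold enrichment of Rpl26 was 12.6 in replicate 1, against 14.7 to 15.1. No WTAkita library held all of these values.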

How the results depend on the processing

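No ribosomal protein gene was called on fold enrichment under any of the 22 alternatives, and on width the count was 0 except for 1 (Rpl4) without Ctrl replicate 2, so that leaving out libraries gave 0 to 1. Over all genes, 2 were called on fold enrichment. The count was 0 with windows of 500 or 2000 bp, the gene's 5′ end only, the summit in the window or the mean over peaks, 69 with summit pileup per tags, 12 with the replicate block and 4 without the 3 libraries whose median was lowest. It was 2 to 14 with a library left out (4 without Ctrl replicate 2, 14 without WTAkita replicate 4). On width 10 genes were called, against 1 with the bases covered by all peaks, 0 with the replicate block, 3 with median fold enrichment as a covariate, 0 without the 3 lowest libraries and 19 to 32 with a library left out. The cause was not tested. The median difference of ribosomal protein genes, 0.011, was -0.036 without normalization (all genes -0.040) and -0.13 with summit pileup per tags (all genes -0.13), -0.0087 without the 3 libraries whose median was lowest (all genes -0.00037) and 0.0070 to 0.019 with a library left out. In fold enrichment over all genes, same-numbered libraries deviated together with correlations of 0.267, 0.0188 and 0.102 for replicates 1 to 3. Differently numbered libraries of the 2 groups had -0.210 to 0.119. Whether same-numbered libraries share a batch was not tested. The replicate block changed no call of a ribosomal protein gene.

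Of 564 recomputed values for 26 named differences, 543 kept direction and side, 1 passed the threshold (Rpl4 width) and 20 changed sign. With summit pileup per tags these were Rpl6 -0.014, Pabpc1 -0.084, Eef1d -0.62 and Dkc1 -0.013. With the mean over peaks they were Rpl5 0.048, Rps4x -0.019, Rpl29 -0.048, Mrps25 0.050, Rrp1 0.049 and Dkc1 -0.028. A window of 2000 bp gave Mrpl53 -0.036, Eef1d -0.092 and Rpl4 width -0.17, and bases covered gave Rpl4 width -0.0064. Without the 3 lowest libraries they were Rps4x -0.012, Mdn1 0.0085 and Rps18 width 0.027. With a library left out, Rps4x ranged from -0.022 (without Ctrl replicate 1) to 0.22, Rps20 width from -0.27 to 0.0067 (without Ctrl replicate 1) and Rpl5 from -0.14 to 0.0052 (without Ctrl replicate 2). Depth is known here only through estimated tags.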
